A study of Mus musculus with 7 samples.

Results

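In mouse embryonic stem cells (ESCs), 495 promoters carried high signal in both the Tip60 and the Hdac6 ChIP upon GFP KD, out of 22704 transcription start sites (TSSs) with a RefSeq identifier. They are called shared promoters here. Each was kept because its mean signal from −500 to 500 bp around the TSS was at least 0.25 ppm and at least 2 times the untagged control in the Tip60 ChIP, and at least 0.25 ppm and no lower than the untagged control in the Hdac6 ChIP. Signal is given in ppm, the reads over a position per 1000000 reads of the library. The rule kept 2.18% of the RefSeq TSSs. It took 29.0% of the 1704 TSSs that passed the Tip60 part and 16.4% of the 3026 that passed the Hdac6 part. The 495 TSSs belong to 448 of 17690 gene symbols, and they form 434 promoters once TSSs within 500 bp of each other are joined. Of the 495, 110 are joined in this way and share reads with a neighbour. Windows of TSSs somewhat farther apart also overlap, so further TSSs can share reads. The promoters were chosen by these Tip60, Hdac6 and untagged values, which are given as a description only.

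All cells were E14 ESCs, a mouse line grown without feeder cells. Tip60 was precipitated with the Flag antibody from Tip60-H3F cells, in which a tag of histidines and Flag epitopes is fused to the end of Tip60 at its own gene, upon GFP KD and upon Hdac6 KD. Hdac6 was precipitated with the same antibody from Hdac6-H3F cells, tagged in the same way, upon GFP KD and upon Tip60 KD. Endogenous p400 was precipitated with its own antibody from untagged cells upon GFP KD and upon Hdac6 KD. The control for the Flag antibody was a Flag ChIP from E14 cells without a tag, for which no knockdown is given. None of the libraries is a control for the p400 antibody. GFP KD is the control knockdown, since ESCs have no GFP gene, and the knockdown cells were collected 72 hr after infection with lentivirus. The library labelled Tip60 KD carries this name in its title, but its genotype field names Hdac6 KD instead, so the protein that was depleted in it is uncertain. Each condition has 1 library and no replicate, so no difference between conditions can be set against the spread between cultures, and the promoters of 1 library are not replicates of a condition.

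Tip60, also known as Kat5, is a lysine acetyltransferase that acts on histones and other proteins. It works within the Tip60-p400 complex, whose largest enzyme, the ATPase p400, exchanges histone variants in nucleosomes near TSSs. Hdac6 is a deacetylase that resides mainly in the cytoplasm of most cells, where tubulin is its best known substrate, while in ESCs it was studied as a partner of the nuclear Tip60-p400 complex. ChIP-seq signal reports where crosslinked DNA was recovered with a protein and does not tell direct binding of DNA from binding through partners.

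All values were whole multiples of the smallest step, the signal of a single read, which gives the depth. The libraries were normalized to between 9226710 reads (Hdac6, Tip60 KD) and 31375600 reads (p400, Hdac6 KD). A shared promoter held a median of 27 reads in the Tip60 ChIP and 23 in the Hdac6 ChIP upon GFP KD, 38 in the p400 ChIP upon GFP KD and 11 in the untagged ChIP. A read covered 299 bp in the Tip60, p400 and untagged data but only 148 to 149 bp in the Hdac6 data. For this reason a level in ppm in the Hdac6 ChIP cannot be set directly against a level in the other libraries. Intervals given with single promoters are exact 95% intervals on reads. They cover counting error only, and PCR reads without molecular identifiers are not independent molecules.

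The sequences of 7 promoters are shown because the results turn on them. Psat1, Pcbp1, Arhgdia, Ncl and Gars were among the 8 shared promoters with the highest summed rank of Tip60 and Hdac6 signal. Cstf1 had the lowest ratio of p400 upon Hdac6 KD over GFP KD and lies in a divergent pair with Aurka, and Rps15a holds a match to the YY1 motif at its TSS. Both were chosen after their values were seen. Each sequence runs 5′ to 3′ on the strand of the gene from 250 bp upstream of the TSS through the first 50 bases after it, in the mm9 build. Capitals mark matches on either strand to the motifs searched that occur here, with the letters CCAAT for the box of that name, GGGCGG for the GC box, CACGTG for the E-box, CCGGAAG for ETS factors, GCGCATGC for NRF1, AAGATGGC for YY1, TCTCGCGA for the Kaiso-type motif and TGATGNAAT for the CARE-type motif, the element read by factors of the amino acid response. Overlapping matches were joined in capitals. Psat1 is chr19:15999466-15999765 on the minus strand, Pcbp1 is chr6:86476110-86476409 on the minus strand, Arhgdia is chr11:120442867-120443166 on the minus strand and Ncl is chr1:88255981-88256280 on the minus strand. Gars is chr6:54987745-54988044 on the plus strand, Cstf1 is chr2:172195947-172196246 on the plus strand and Rps15a is chr7:125259612-125259911 on the minus strand. In each case the TSS lies in an annotated exon of the named gene.
Psat1: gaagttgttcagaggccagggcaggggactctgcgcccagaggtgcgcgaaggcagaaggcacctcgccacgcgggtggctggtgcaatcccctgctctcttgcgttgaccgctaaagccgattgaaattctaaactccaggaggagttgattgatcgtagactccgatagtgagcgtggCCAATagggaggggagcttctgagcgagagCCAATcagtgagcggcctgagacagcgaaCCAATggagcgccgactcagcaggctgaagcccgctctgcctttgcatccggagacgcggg
Pcbp1: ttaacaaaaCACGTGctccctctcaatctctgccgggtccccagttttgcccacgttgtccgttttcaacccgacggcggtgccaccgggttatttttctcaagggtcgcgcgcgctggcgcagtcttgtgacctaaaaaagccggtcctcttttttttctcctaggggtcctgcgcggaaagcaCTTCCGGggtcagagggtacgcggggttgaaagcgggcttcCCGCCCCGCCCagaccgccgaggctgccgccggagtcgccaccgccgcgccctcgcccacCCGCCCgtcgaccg
Arhgdia: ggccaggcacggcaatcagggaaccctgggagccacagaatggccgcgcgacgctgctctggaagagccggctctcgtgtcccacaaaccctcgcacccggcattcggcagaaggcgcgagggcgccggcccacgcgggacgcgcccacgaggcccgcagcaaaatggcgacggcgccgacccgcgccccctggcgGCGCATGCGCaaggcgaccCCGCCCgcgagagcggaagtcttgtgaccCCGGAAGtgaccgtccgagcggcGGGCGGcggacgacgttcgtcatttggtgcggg
Ncl: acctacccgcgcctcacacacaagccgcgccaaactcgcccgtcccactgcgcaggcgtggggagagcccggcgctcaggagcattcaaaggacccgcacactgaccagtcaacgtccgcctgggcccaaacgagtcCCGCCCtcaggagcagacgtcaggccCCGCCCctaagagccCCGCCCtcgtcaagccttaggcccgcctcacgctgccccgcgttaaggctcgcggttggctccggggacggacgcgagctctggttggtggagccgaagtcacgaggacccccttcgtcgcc
Gars: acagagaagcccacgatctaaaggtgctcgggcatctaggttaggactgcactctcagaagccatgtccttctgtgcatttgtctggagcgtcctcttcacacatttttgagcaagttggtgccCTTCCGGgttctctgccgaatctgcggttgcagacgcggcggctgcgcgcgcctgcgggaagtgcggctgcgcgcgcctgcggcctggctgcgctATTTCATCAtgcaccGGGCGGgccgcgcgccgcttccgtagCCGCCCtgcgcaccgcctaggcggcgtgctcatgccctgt
Cstf1: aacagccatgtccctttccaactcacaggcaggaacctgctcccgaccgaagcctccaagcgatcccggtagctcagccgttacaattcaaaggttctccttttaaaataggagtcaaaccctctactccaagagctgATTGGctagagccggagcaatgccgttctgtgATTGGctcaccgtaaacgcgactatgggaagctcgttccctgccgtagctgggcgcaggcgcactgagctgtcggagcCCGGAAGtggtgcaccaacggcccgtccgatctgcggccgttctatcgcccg
Rps15a: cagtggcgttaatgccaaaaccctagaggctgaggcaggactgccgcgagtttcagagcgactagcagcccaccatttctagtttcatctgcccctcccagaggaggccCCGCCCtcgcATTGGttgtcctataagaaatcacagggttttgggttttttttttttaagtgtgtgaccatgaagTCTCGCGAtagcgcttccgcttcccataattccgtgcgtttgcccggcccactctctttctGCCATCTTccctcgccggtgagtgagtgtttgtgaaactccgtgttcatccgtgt

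The promoter of Psat1, an aminotransferase of serine synthesis, holds 3 CCAAT boxes that begin at −70, −40 and −11 from the TSS. Pcbp1, an RNA-binding protein, has an E-box at −241, an ETS match at −65 and 3 GC boxes, of which those at −24 and −19 overlap. Arhgdia has overlapping NRF1 matches at −54 and −52, an ETS match at −6 and GC boxes at −35 and 17. Ncl, which encodes nucleolin, a major nucleolar protein, holds 3 GC boxes and none of the other motifs. Gars, the glycyl-tRNA synthetase, has the CARE-type match at −31, an ETS match at −126 and GC boxes at −16 and 10. Cstf1 has CCAAT boxes at −112 and −80 and an ETS match at −2, and Rps15a has a GC box at −141, a CCAAT box at −131, a Kaiso-type match at −66 and the YY1 match at −5.

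The Tip60 signal upon GFP KD spanned 0.251 to 1.38 ppm over the shared promoters, with a median of 0.376 ppm against 0.173 ppm over all RefSeq TSSs. The Hdac6 signal spanned a narrow range of 0.250 to 0.476 ppm with a median of 0.294 ppm against 0.146 ppm. The untagged control had a median of 0.141 ppm, close to the 0.152 ppm of all RefSeq TSSs. After the untagged level was adjusted for the difference in read span, the Hdac6 signal was between 2.02 and 18.9 times that level, with a median of 4.32 against 1.85 over all RefSeq TSSs. Within the shared promoters the Tip60 and Hdac6 levels followed each other little (Pearson's r 0.211, Spearman's coefficient 0.199 across 495 TSSs), a description that the cuts of the rule narrow.

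**Figure D1:**
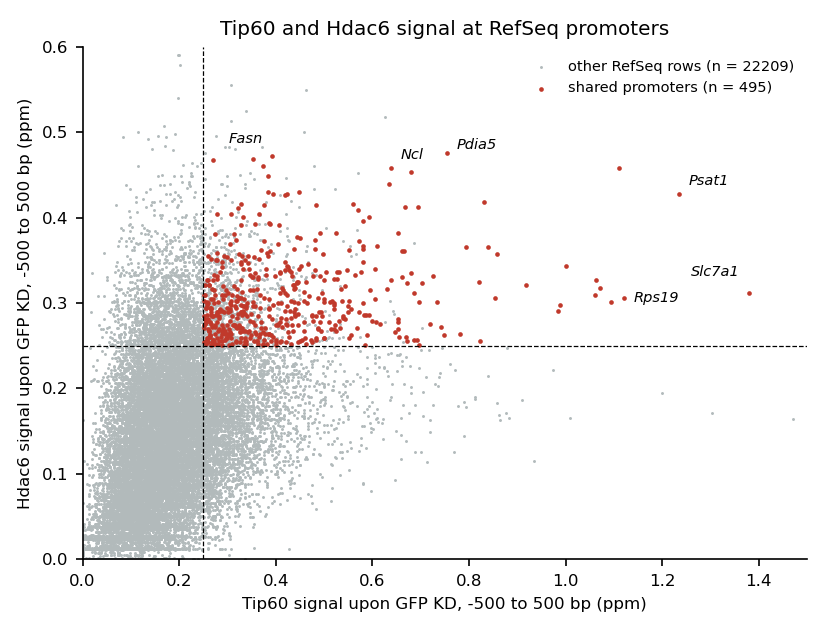
Each point is a RefSeq TSS, with its Tip60 signal (x axis, ppm) against its Hdac6 signal (y axis, ppm), both means from −500 to 500 bp upon GFP KD, and the 495 shared promoters in red. The red points fill the corner above 0.25 ppm on both axes, Slc7a1 lies farthest to the right at 1.38 ppm, and 10 TSSs lie outside the plotted range.

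Psat1 gave 1.23 ppm of Tip60 signal upon GFP KD (90 reads, interval 0.993 to 1.52), and with Hdac6 KD it gave 0.407 ppm. Its Hdac6 signal was 0.428 ppm upon GFP KD and 0.234 ppm in the library labelled Tip60 KD, against 0.160 ppm in the untagged control. Its p400 signal fell from 1.14 to 0.299 ppm with Hdac6 KD (ratio 0.262, interval 0.171 to 0.396). Psat1 was chosen for its rank in the Tip60 and Hdac6 libraries with GFP KD, so only the p400 values are free of the choice.

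Pcbp1 gave 0.681 ppm of Tip60 signal with GFP KD and 0.379 ppm with Hdac6 KD, and 0.129 ppm in the untagged control. Its Hdac6 signal was 0.454 and 0.349 ppm, and its p400 signal 0.838 and 0.186 ppm, each upon GFP KD and then upon the other knockdown. Nop56, a core protein of the particles that methylate ribosomal RNA, gave 0.831 and 0.598 ppm of Tip60, 0.418 and 0.319 ppm of Hdac6 and 0.728 and 0.199 ppm of p400 in the same order, with 0.146 ppm untagged. In both genes the Tip60 signal after Hdac6 KD still lay above the untagged level, and p400 was lower by a larger factor than Tip60.

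Ncl had a higher untagged level of 0.285 ppm, beside 0.638 ppm of Tip60 and 0.459 ppm of Hdac6 upon GFP KD. Pdia5, a disulfide isomerase of the endoplasmic reticulum, had the highest Hdac6 signal of the shared promoters at 0.476 ppm and also the highest untagged level at 0.359 ppm. Its Tip60 signal of 0.754 ppm lay just over the limit of 2 times that level. Akt1s1, an inhibitor of the mTOR complex, was the other of these 8 promoters with an untagged level above 0.3 ppm, at 0.312 ppm beside 0.634 ppm of Tip60 and 0.440 ppm of Hdac6. For these promoters part of the Flag signal was present without a tag.

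Near the limits of the rule, Syvn1, a ubiquitin ligase of the endoplasmic reticulum, was kept with 0.275 ppm of Tip60, 0.274 ppm of Hdac6 and 0.137 ppm untagged. Cry1, a repressor of the circadian clock, was left out with 0.311 ppm of Tip60, 0.254 ppm of Hdac6 and 0.156 ppm untagged. The Tip60 values rest on 20 reads at Syvn1 and 23 at Cry1, and their intervals of 0.168 to 0.424 ppm and 0.197 to 0.467 ppm both reach across the limits of the rule.

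The p400 ChIP took no part in the choice of these promoters. Upon GFP KD, 472 of the 495 shared promoters (95.4%) had at least 0.25 ppm of p400, where 47.1% of all RefSeq TSSs did. The share was 82.1% among the 1209 TSSs that passed only the Tip60 part and 80.1% among the 2531 that passed only the Hdac6 part. The shared promoters had a median p400 signal of 0.436 ppm (range 0.148 to 1.34), above 0.366 ppm for the Tip60 part only, 0.331 ppm for the Hdac6 part only and 0.239 ppm for all RefSeq TSSs. With 1 library there is no test of these differences.

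Of the shared promoters, 257 (51.9%) lay in the top 10% of RefSeq TSSs by p400 signal, a set that holds 10% of all TSSs by its making. The share was 33.2% for the Tip60 part only and 20.7% for the Hdac6 part only. Relative to the untagged control, 447 of the shared promoters (90.3%) had at least 2 times as much p400 signal, where 33.3% of all RefSeq TSSs did. That control also entered the rule, so this last count is not free of the choice. It is a control for the Flag antibody and does not give the background of the p400 antibody.

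Bax, a trigger of apoptosis, had the highest p400 signal of the shared promoters at 1.34 ppm, beside 0.858 ppm of Tip60, 0.357 ppm of Hdac6 and 0.310 ppm untagged. Ppp1r15b, a subunit that directs a phosphatase to an initiation factor of translation, followed Hspa9, a mitochondrial chaperone, with 1.27 against 1.33 ppm. The counting intervals of these 3 promoters overlap. At the low end, Fblim1, a filamin-binding adaptor of the cytoskeleton, had 0.148 ppm of p400 from 13 reads beside 0.252 ppm of Tip60 and 0.271 ppm of Hdac6. Tcf15, a basic helix-loop-helix factor of early mesoderm, had 0.196 ppm of p400 beside 0.402 ppm of Tip60.

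Across the 495 promoters the p400 signal upon GFP KD followed the Tip60 signal (Pearson's r 0.753, Spearman's coefficient 0.678) more than the Hdac6 signal (Pearson's r 0.258, Spearman's coefficient 0.280). Over all 22704 TSSs this order was not seen on ranks, with Pearson's r of 0.733 and Spearman's coefficient of 0.646 for Tip60 against 0.677 and 0.682 for Hdac6. The points share local features of the genome such as base composition and mappability, and the untagged control also followed p400 within the shared promoters (Pearson's r 0.503). The narrow range of the Hdac6 signal that the rule leaves limits what its correlation can show.

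Upon Hdac6 KD the p400 signal of the shared promoters had a median of 0.216 ppm, against 0.176 ppm over all RefSeq TSSs. It was lower than upon GFP KD at 487 of the 495 promoters (98.4%), where 73.5% of all RefSeq TSSs were lower. It was at least 1.5-fold lower at 410 (82.8%), where 44.2% of all RefSeq TSSs were, 71.8% of the Tip60 part only and 62.6% of the Hdac6 part only. At least 2-fold lower signal was seen at 278 (56.2%), where the share of all RefSeq TSSs was 21.8%. Only 1 shared promoter, Fblim1, was at least 1.5-fold higher (0.202%), where 8.62% of all RefSeq TSSs were. Its rise from 13 to 29 reads gave a ratio of 1.81 with an interval of 0.906 to 3.77, which includes no change.

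By an exact conditional binomial test on reads with Benjamini-Hochberg adjustment over all RefSeq TSSs, 241 shared promoters (48.7%) had fewer p400 reads upon Hdac6 KD, where 11.6% of all RefSeq TSSs did. This test compares the pair of libraries, not the conditions. The median ratio of Hdac6 KD over GFP KD was 0.475 (interquartile range 0.374 to 0.606) at the shared promoters, 0.526 for the Tip60 part only, 0.602 for the Hdac6 part only and 0.712 for all RefSeq TSSs. The mean signal changed by −54.3% at the shared promoters and by −31.3% over all RefSeq TSSs.

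The lower ratio went with the higher starting level of p400. Among TSSs with 0.25 to 0.35 ppm upon GFP KD the median ratio was 0.60 at the 87 shared promoters and 0.640 at the 5507 others. From 0.35 to 0.5 ppm it was 0.522 at 202 shared promoters and 0.507 at 3886 others, and from 0.5 to 0.75 ppm it was 0.392 at 140 and 0.401 at 779. At 0.75 ppm or more it was 0.254 at 43 shared promoters and 0.288 at 57 others. At a like p400 level the shared promoters and the other TSSs thus had ratios within a few hundredths of each other, and their interquartile ranges overlapped in all 4 bands. The bands are cut on the library that is the denominator of the ratio, so part of the decline across bands follows from the cut.

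**Figure D2:**
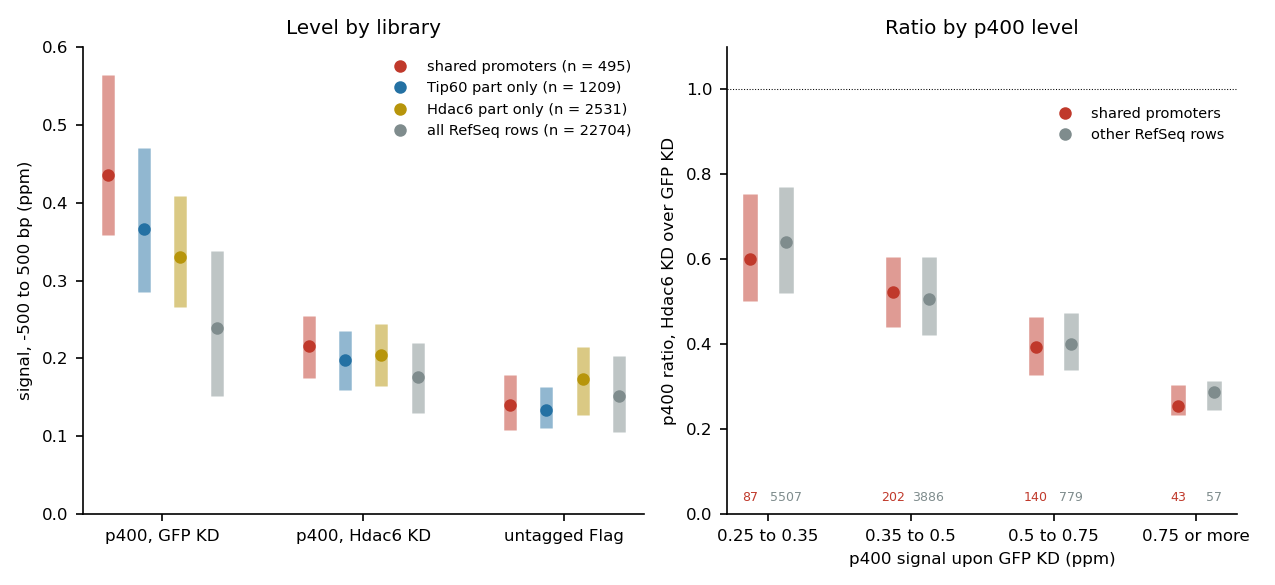
Left, median (dots) and interquartile range (bars) of the mean signal from −500 to 500 bp in ppm, for the 4 groups of TSSs in the p400 libraries and the untagged control. Right, the ratio of p400 upon Hdac6 KD over GFP KD by the p400 level upon GFP KD, with the number of TSSs at the base; shared promoters and other TSSs lie side by side, from 0.60 and 0.640 in the lowest band to 0.254 and 0.288 in the highest.

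The p400 libraries also differed away from promoters. In windows 1500 to 2000 bp from the TSS the ratio of Hdac6 KD over GFP KD varied with GC content. It was 0.752 in the bin of lowest GC, 1.11 from 55%, 0.998 from 60% (284 windows), 0.760 from 62.5% (110 windows) and 0.693 from 67.5% (70 windows), so the bins that cover most shared promoters rest on few windows. After dividing by this ratio bin by bin, the median ratio of the shared promoters was 0.564 and that of all RefSeq TSSs 0.767, and 66.1% of the shared promoters against 38.2% of all were at least 1.5-fold lower. With both libraries set to equal totals the medians were 0.575 and 0.862, and the shares 63.2% and 28.2%. The part that base composition has in the fall was not tested beyond these values, and 59 of the shared promoters lay above the highest GC bin.

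Cstf1, a subunit of the factor that cleaves pre-mRNA at its end, had the lowest p400 ratio. Its p400 signal was 1.05 ppm (90 reads) with GFP KD and 0.170 ppm (18 reads) with Hdac6 KD, a ratio of 0.163 (interval 0.0915 to 0.270). Aurka, a mitotic kinase read in the opposite direction from the same region, had 0.923 and 0.170 ppm, and these reads are largely shared with Cstf1. Fubp1, a regulator of Myc transcription, had 0.706 and 0.116 ppm, and Hnrnpk, a splicing factor, had 0.776 and 0.141 ppm. At the other end of the named promoters with at least 0.25 ppm of p400, Cdca8, a subunit of the chromosomal passenger complex, had 0.352 ppm (30 reads) and 0.399 ppm (43 reads), a ratio of 1.13 (interval 0.709 to 1.91). Pdia5 changed little as well, from 0.582 to 0.482 ppm, a ratio of 0.829 (interval 0.558 to 1.26).

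After Hdac6 KD, 130 shared promoters (26.3%) still had at least 0.25 ppm of p400, where 12.9% of all RefSeq TSSs did. At 114 (23.0%) the p400 signal was still at least 2 times the untagged control, where 14.3% of all RefSeq TSSs were. The median over the untagged control was 1.52 at the shared promoters and 1.13 over all RefSeq TSSs. Since that control is a Flag ChIP, these values do not tell how much p400 signal is background.

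The mean p400 profile upon GFP KD had a single summit of 0.557 ppm at 60 bp downstream of the TSS. Upon Hdac6 KD it reached only 0.230 ppm at 140 bp. The Hdac6 profile had its summit close by, 0.398 ppm at 80 bp upon GFP KD and 0.360 ppm at 100 bp in the library labelled Tip60 KD. The Tip60 profile upon GFP KD had a pair of summits, 0.468 ppm at 220 bp and 0.421 ppm at −400 bp, with a dip to 0.398 ppm at −180 bp. The untagged control dipped to 0.124 ppm at −60 bp, with its highest value at −860 bp. The rule itself favours promoters with a low control near the TSS.

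The sides of the TSS were compared at each promoter. The mean from −100 to 300 bp was higher than that from −600 to −200 bp at 73.3% of the shared promoters in the Hdac6 ChIP, at 62.4% in the p400 ChIP and at 59.8% in the Tip60 ChIP upon GFP KD, and at 33.9% in the untagged control. Over all RefSeq TSSs these shares were 65%, 60.5%, 50.4% and 43.7%. The TSSs that passed only the Tip60 part had the same order, with 70.1%, 69.9%, 62.1% and 36.6%. Upon Hdac6 KD the Tip60 share was 46.5% at the shared promoters and the larger summit lay upstream, 0.273 ppm at −420 bp against 0.261 ppm at 260 bp. Over all RefSeq TSSs that share was close, 45%, with the maximum also at −420 bp. It was 49.5% for the Tip60 part only.

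**Figure D3:**
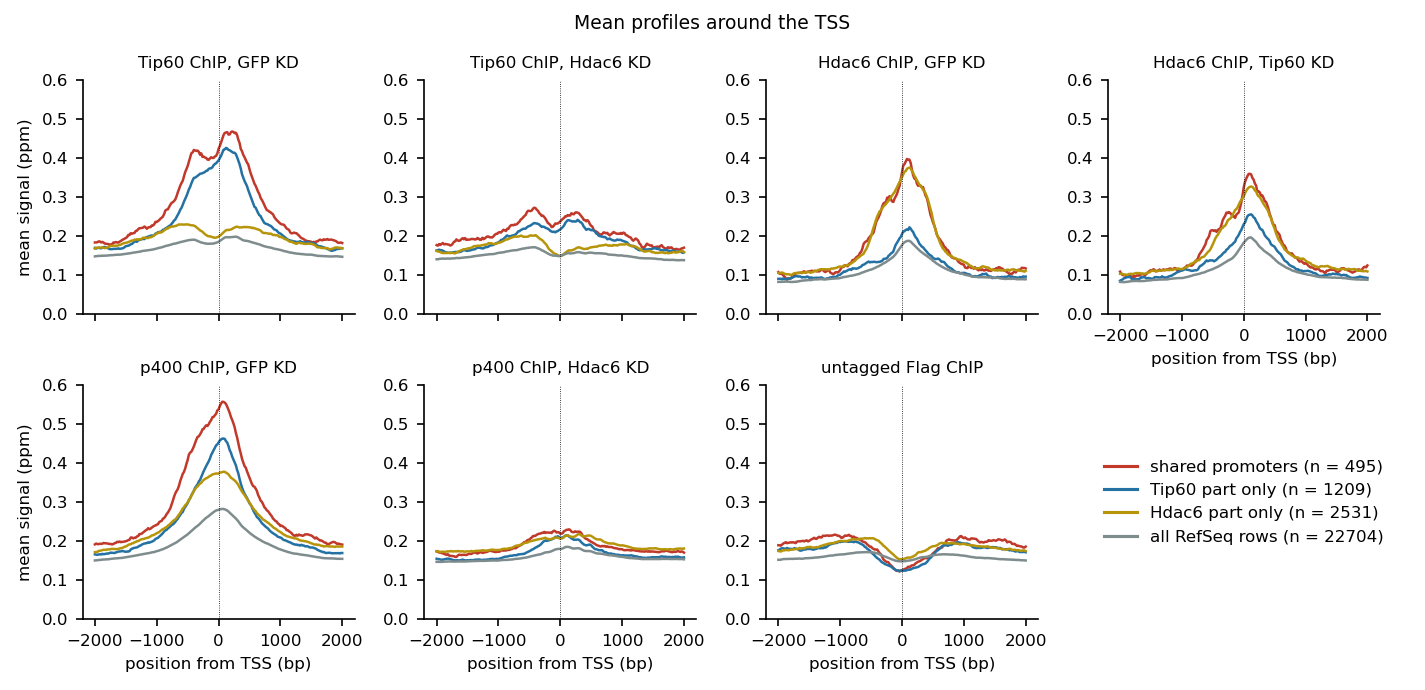
Mean signal (y axis, ppm) by position from the TSS (x axis, bp) in each of the 7 libraries, for the shared promoters and 3 groups of TSSs they are compared with. At the shared promoters p400 upon GFP KD peaks at 0.557 ppm near 60 bp, Tip60 upon GFP KD has summits at −400 and 220 bp, and the untagged control dips near the TSS.

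The Tip60 ChIP upon Hdac6 KD is a second library of tagged Tip60, in which the shared promoters had a median of 0.223 ppm (range 0.00921 to 0.947) against 0.143 ppm over all RefSeq TSSs. Here 122 of the shared promoters (24.6%) passed the Tip60 part of the rule again, where 4.44% of all RefSeq TSSs did. The share was 21.4% for the Tip60 part only and 3.87% for the Hdac6 part only. At 97 (19.6%) the signal was at or under the untagged control, where 52.9% of all RefSeq TSSs were. The median over the untagged control was 1.60, against 0.966 over all RefSeq TSSs. The untagged control that sets this scale also chose the promoters, which favours them in each of these counts.

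Only 42 shared promoters (8.48%) had more Tip60 signal upon Hdac6 KD than upon GFP KD, where 36.4% of all RefSeq TSSs did. Promoters chosen for a high value in 1 library are lower in another by the choice alone, so nothing is read from this count or from the mean change of −41.3%. Mybbp1a, a nucleolar protein that binds Myb, was among those that were higher, with 0.827 ppm upon Hdac6 KD and 0.686 ppm upon GFP KD. Cstf1 was also higher, with 0.787 and 0.697 ppm, from 51 reads in either library. The p400 signal of Cstf1, which was also named for its large p400 fall, was lower in its own pair of libraries, at 0.170 against 1.05 ppm. Gars was lower, with 0.189 ppm upon Hdac6 KD against 0.668 ppm upon GFP KD and 0.233 ppm untagged.

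In the library labelled Tip60 KD, the Hdac6 signal of the shared promoters had a median of 0.270 ppm (range 0.0956 to 0.561) against 0.149 ppm over all RefSeq TSSs. The Hdac6 part of the rule was passed again by 301 of the 495 (60.8%), where 15.6% of all RefSeq TSSs passed it. The share was 51.5% for the Hdac6 part only and 23.5% for the Tip60 part only. More Hdac6 signal than upon GFP KD was found at 183 (37.0%), where 51.5% of all RefSeq TSSs had more, a count that is bound to the choice in the same way as that for Tip60. Fasn, the fatty acid synthase, had the highest value at 0.561 ppm (36 reads), beside 0.472 ppm (38 reads) upon GFP KD. Arih1, a ubiquitin ligase, had 0.529 ppm beside 0.294 ppm (ratio interval 1.06 to 3.30). Eif4ebp2, a repressor of translation initiation, had 0.470 ppm beside 0.30 ppm (ratio interval 0.887 to 2.81). These promoters were named for high values in this library, which favours a level above GFP KD. By the exact test on reads, 0 of 22704 RefSeq TSSs had more or fewer Hdac6 reads at an adjusted p under 0.05. A RefSeq TSS held a median of only 12 Hdac6 reads upon GFP KD and 9 in the library labelled Tip60 KD. With so few reads the test could miss changes, so the count of 0 does not show that Hdac6 signal was unchanged.

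Both parts of the rule, applied to the knockdown libraries in place of the GFP KD libraries, kept 242 RefSeq TSSs (1.07%). Of these, 81 were shared promoters, 33.5% of the 242 and 16.4% of the 495, and both sets use the same untagged control. They include Eif5a, which carries the only hypusine residue known in mammals, with 0.593 ppm of Tip60, 0.495 ppm of Hdac6 and 0.0483 ppm untagged at its row with the lowest background. Rps19, a protein of the small ribosomal subunit, gave 0.477 ppm of Tip60 and 0.406 ppm of Hdac6 against 0.185 ppm untagged in these libraries. Nop56, Pcbp1 and Arhgdia passed as well, while Psat1, Gars and Akt1s1 did not.

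The shared promoters were rich in GC and CpG. Their median GC content from −500 to 500 bp was 63.5%, against 55.2% over all RefSeq TSSs, 58.1% for the Tip60 part only and 63.4% for the Hdac6 part only. The ratio of observed over expected CpG was 0.823, against 0.548, 0.753 and 0.768 in the same order. In GC content they thus resembled the Hdac6 part, and their CpG ratio was above that of both other groups.

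Promoter sequences of 300 bp were searched for short motifs on both strands. A TATA box (TATAAA) was found in 4.24% of the shared promoters and in 12.5% of all RefSeq promoters of this length. The GC box was found in 75.6% against 45.8%, the ETS motif in 22.6% against 11.1%, the E-box in 14.9% against 7.66% and the CCAAT box in 30.9% against 36.4%. The YY1 motif was in 9.90% against 3.43%, the NRF1 motif in 7.47% against 3.12% and the Kaiso-type motif in 5.05% against 1.30%. A cyclic AMP response element (TGACGTCA) was in 3.84% against 2.19%, and the ZNF143-type letters ACTACAA were in 3.23% against 3.51%. The CARE-type letters occurred in 1 shared promoter, Gars (0.202%), and in 0.881% of all promoters.

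At like GC content the shares of the GC box were close, while several other motifs were more frequent in the shared promoters. Among TSSs with a GC content of 60% to 65%, 77.1% of 179 shared promoters and 78.0% of 3413 others held a GC box. In the same band the YY1 motif was in 14.0% against 3.81%, the ETS motif in 25.1% against 16.4% and the Kaiso-type motif in 5.59% against 2.40%. In the bands from 55% to 60% and from 65% to 70% the YY1 shares were 8.82% against 4.42% and 8.15% against 4.21%. The Tip60 part only was close to the shared promoters in the YY1 (8.52%) and ETS (22.0%) shares, and the Hdac6 part only in the GC box share (75%). These are matches of letters and not sites of binding.

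**Figure D4:**
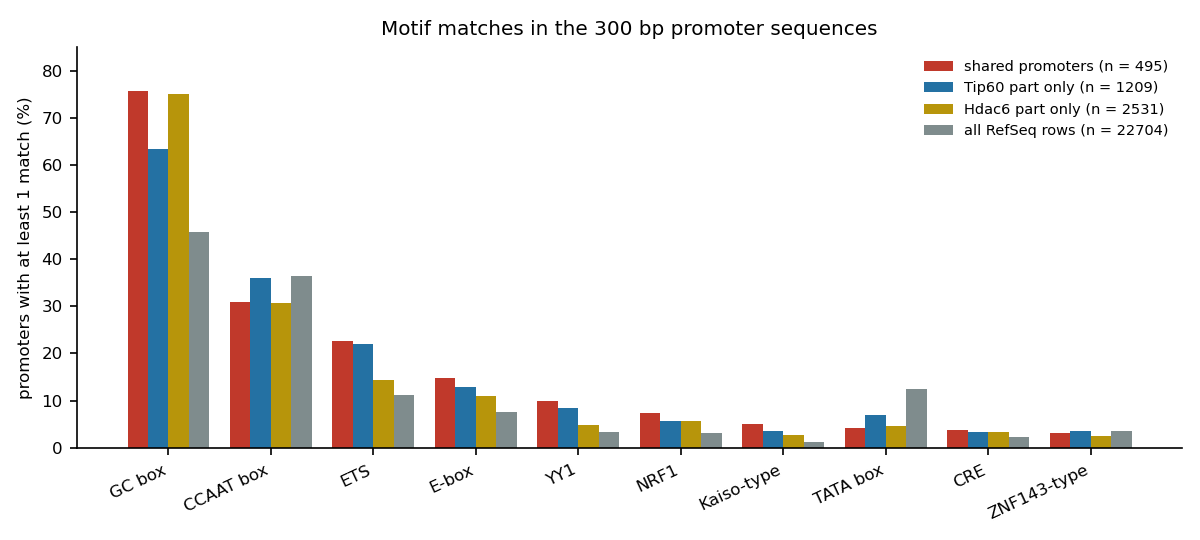
Percent of promoters (y axis) whose 300 bp sequence holds at least 1 match to each motif (x axis), for the shared promoters and 3 groups of TSSs. The GC box is in 75.6% of the shared promoters and 45.8% of all RefSeq promoters, and the TATA box in 4.24% and 12.5%.

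Among the shared promoters, the 49 with a YY1 match had a median p400 signal of 0.518 ppm upon GFP KD against 0.433 ppm in the 446 without, and 0.436 against 0.372 ppm of Tip60. The Hdac6 signal was nearly equal, 0.296 and 0.294 ppm. Higher p400 was not particular to YY1. The p400 median was also higher with most other motifs, as with the Kaiso-type motif (0.593 against 0.428 ppm) and the TATA box (0.535 against 0.432 ppm). It was lower with the GC box (0.428 against 0.483 ppm) and the cyclic AMP response element (0.412 against 0.440 ppm). Rps15a, a protein of the small ribosomal subunit, is an example, although it also holds a Kaiso-type match, a CCAAT box and a GC box. It gave 0.697 ppm of Tip60 and 0.612 ppm of p400, while its Hdac6 signal of 0.250 ppm lay at the minimum that the rule sets.

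Genes of amino acid supply and of the response to amino acid stress had the highest share of the lists counted. This list and that of ribosome biogenesis were added after the values had been seen, so their counts are descriptions of a pattern already noticed. Of 35 such genes, 11 (31.4%) had a shared promoter, where 2.53% of all genes did. Slc7a1, a transporter of cationic amino acids, had the highest Tip60 signal of the shared promoters at 1.38 ppm (100 reads), beside 0.311 ppm of Hdac6, 0.110 ppm untagged and 1.03 ppm of p400. Xpot, which exports tRNA from the nucleus, gave 1.06 ppm of Tip60 and 0.862 ppm of p400. Chac1, an enzyme of glutathione breakdown, gave 0.839 and 0.906 ppm, and Ddit3, a stress transcription factor, 0.573 and 0.624 ppm.

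Upon Hdac6 KD the p400 signal was at least 1.5-fold lower at 12 of the 13 TSSs of these genes. This is near the 82.8% of all shared promoters, where 44.2% of all RefSeq TSSs were lower by as much. The ratios ran from 0.221 at Slc7a1 to 0.774 at Slc7a5, a transporter of large neutral amino acids. The Tip60 signal in that knockdown ranged from 0.148 ppm at Slc1a4, a neutral amino acid transporter, to 0.529 ppm at Slc38a1, a glutamine transporter. Further members were Slc38a2, Slc6a9 and Stc2. The wider group of solute carrier genes had a shared promoter in 15 of 325 (4.62%). Its count includes these amino acid transporters and also Slc7a6os, which is not a carrier gene itself.

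Several lists concern the ribosome and translation. Translation initiation and elongation factors had 9 of 63 genes (14.3%), aminoacyl-tRNA synthetases 5 of 34 (14.7%), cytosolic ribosomal proteins 11 of 79 (13.9%) and ribosome biogenesis factors 10 of 70 (14.3%). The 9 genes counted as translation factors include Eif4ebp1, Eif4ebp2 and Eif4enif1, whose products bind an initiation factor and are not such factors themselves. Mitochondrial ribosomal proteins had 5 of 69 (7.25%). For the cytosolic ribosomal proteins the Tip60 part of the rule was passed by 51 of 98 TSSs, the Hdac6 part by 25 and both by 13. Over all RefSeq TSSs the shares were 7.51%, 13.3% and 2.18%. Whether the 13 exceed the overlap that the separate counts would give was not tested.

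Rps19 gave 1.12 ppm of Tip60, 0.306 ppm of Hdac6, 0.185 ppm untagged and 1.03 ppm of p400 upon GFP KD at its annotated TSS. Its p400 signal upon Hdac6 KD was 0.281 ppm, a ratio of 0.274 (interval 0.173 to 0.415). Over the 13 TSSs of these 11 ribosomal protein genes the p400 ratio ranged from 0.215 at Rps27a to 0.631 at Rps21. Each was at least 1.5-fold lower, where 82.8% of the shared promoters and 44.2% of all RefSeq TSSs were. The Tip60 signal upon Hdac6 KD was above that upon GFP KD at 3 of these 13, beside 8.48% of the shared promoters and 36.4% of all RefSeq TSSs. These were Rps27a and a pair of Rps21 TSSs that share most of their reads, so they are not independent. Rps27a had 0.434 ppm (28 reads) against 0.402 ppm (29 reads), a ratio of 1.08 with an interval of 0.616 to 1.87, which includes no change.

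Among the synthetases, Gars gave 0.815 ppm of p400 with GFP KD and 0.184 ppm with Hdac6 KD, and Eprs, which charges glutamate and proline, 0.656 and 0.189 ppm. Sars, the seryl-tRNA synthetase, changed less, with 0.360 and 0.284 ppm. Among the factors of translation, Eef1a1, which brings tRNA to the ribosome, gave 0.593 ppm of Tip60, 0.401 ppm of Hdac6 and 0.612 ppm of p400. Eif5, a factor of start codon choice, gave 0.795 ppm of Tip60 at the 1 of its 3 TSSs with the most signal.

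Splicing factors had 9 of 63 genes (14.3%), and their 11 TSSs had a median p400 signal of 0.745 ppm upon GFP KD. All 11 were at least 1.5-fold lower upon Hdac6 KD, with a median ratio of 0.291. At 0.5 to 0.75 ppm of p400, 98.1% of the TSSs that are not shared promoters were lower by as much, so this count goes with the p400 level. Sfrs7, a splicing factor of the serine and arginine rich family, gave 1.06 ppm of Tip60, 0.327 ppm of Hdac6 and 0.779 ppm of p400. Sfrs1, of the same family, gave 0.821, 0.325 and 0.824 ppm. Their p400 levels upon Hdac6 KD were 0.227 and 0.204 ppm. The untagged Flag ChIP, which is not a control for the p400 antibody, gave 0.216 and 0.178 ppm there.

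Chaperone genes had 9 of 75 (12.0%). Hspd1 and Hspe1, the mitochondrial chaperonin and its partner, are divergent genes with TSSs 472 bp apart, and gave 0.581 and 0.599 ppm of Tip60. Hspa9 gave 1.09 ppm of Tip60, 0.301 ppm of Hdac6 and 0.281 ppm untagged. Genes of the respiratory chain (3 of 88), of RNA polymerase and Mediator (3 of 92), of the proteasome (1 of 35), of cell cycle kinases and licensing (4 of 75) and of Zfp zinc fingers (6 of 271) had shares from 2.21% to 5.33%. The 4 cell cycle genes include Cdc42ep3, which encodes neither a kinase nor a licensing factor.

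No promoter of 60 replication-dependent histone genes, 1292 olfactory and vomeronasal receptor genes, 39 Hox genes, 52 DNA repair genes, 18 early differentiation genes or 13 germline genes was shared. At 2.53%, each of these lists other than the receptors would hold at most 2 genes. Of the genes for the complex itself, Dmap1, a subunit of the Tip60-p400 complex, was the only 1 of 20 with a shared promoter, and of 17 deacetylase genes it was Sirt6. Of 20 pluripotency genes it was Fgf4, a growth factor of ESCs. Cdkn1a, an inhibitor of the cell cycle that the study named, was a shared promoter as well, with 0.494 ppm of Tip60, 0.267 ppm of Hdac6, 0.221 ppm untagged and 0.368 ppm of p400. Other genes named in its ChIP figures were not shared: Rps9, Rpl27a, Nodal, Nefl, Zfp37, Dkk1, Gata4 and the study's negative control Speer2. Nodal had 0.318 ppm of Tip60 against 0.335 ppm untagged, and Nefl 0.154 against 0.166 ppm. Rpl27a passed the Tip60 part but had only 0.240 ppm of Hdac6.

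**Figure D5:**
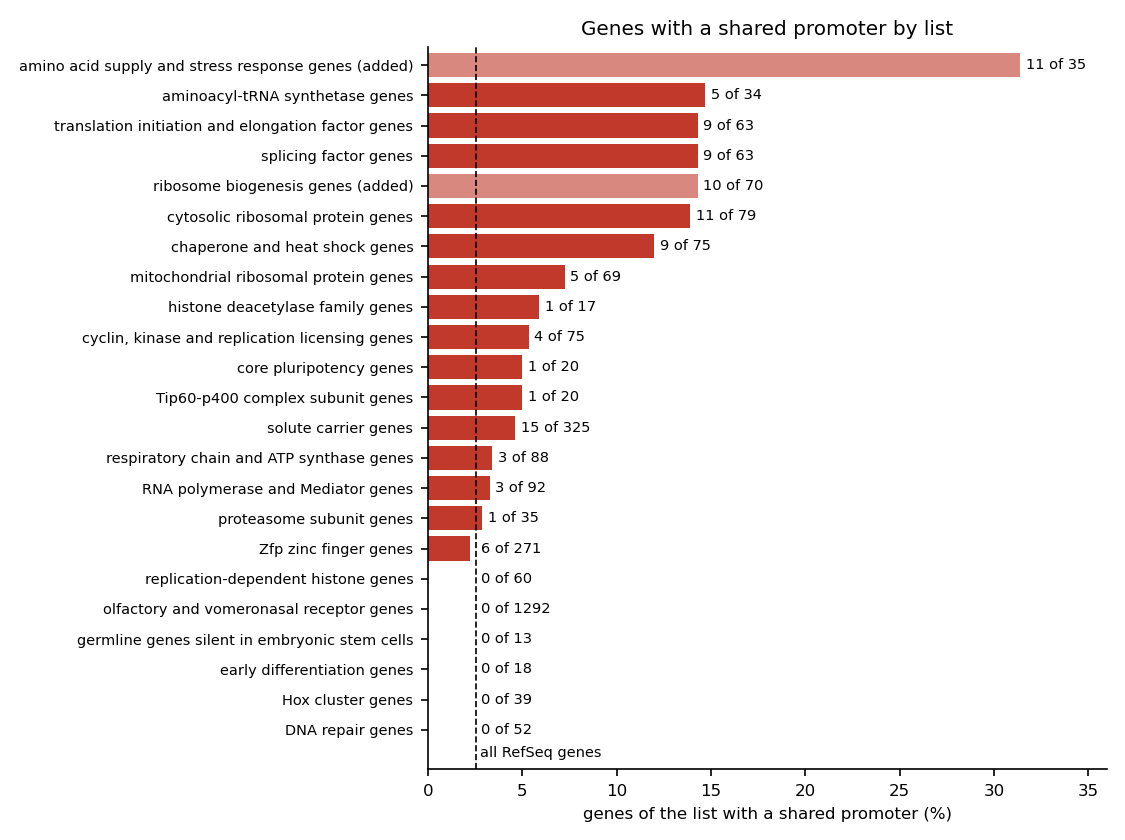
Percent of the genes of each list that have at least 1 shared promoter (x axis), by list (y axis), with the counts beside each bar and the 2.53% of all RefSeq genes as a dashed line. Light bars mark the lists added after the values had been seen; amino acid genes lead with 11 of 35, and 6 lists have none.

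Shared promoters often faced another gene. A TSS on the other strand lay within 1000 bp upstream at 106 of them (21.4%), against 9.60% of all RefSeq TSSs, 20.6% of the Tip60 part only and 14.7% of the Hdac6 part only. These 106 had a median Tip60 signal of 0.437 ppm and p400 signal of 0.497 ppm upon GFP KD, against 0.363 and 0.428 ppm at the other 389. Their p400 maximum lay at −220 bp, upstream of the TSS, where the other 389 had theirs at 80 bp. The Tip60 maximum lay at −400 bp in the 106 and at 100 bp in the 389. The Hdac6 maximum lay downstream in both, at 120 and 80 bp.

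In 21 pairs of divergent genes both promoters were shared, with starts a median of 165 bp apart. Such pairs share reads and are not independent. Aurka and Cstf1 start 191 bp apart, or 172 bp apart from a second Aurka row, and gave 0.647 and 0.697 ppm of Tip60. Med22, a subunit of Mediator, and Rpl7a, a ribosomal protein, start 165 bp apart with 0.425 and 0.458 ppm, and Bop1, a factor of ribosome assembly, and Hsf1, the heat shock transcription factor, 176 bp apart with 0.387 and 0.354 ppm. B3galt6, a glycosyltransferase, and Sdf4, a calcium-binding protein of the Golgi, 194 bp apart, gave 0.385 and 0.289 ppm of Tip60, although their p400 signals of 0.609 and 0.564 ppm were close.

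None of 915 RefSeq TSSs on the X chromosome was shared. E14 is a male line with a single X, and all libraries were lower there: the median Tip60 signal upon GFP KD was 0.0827 ppm on X and 0.176 ppm elsewhere, and that of the untagged control 0.0771 and 0.155 ppm. Only 12 X TSSs passed the Tip60 part and 1 the Hdac6 part. Since the rule uses fixed limits in ppm, the lower copy number of X cannot be told apart from lower occupancy. On the autosomes the share ran from 1.33% on chromosome 6 (16 of 1200) to 3.46% on chromosome 8 (37 of 1068), with 3.44% on chromosome 11 (62 of 1803).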

How the data were processed

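The data are 7 ChIP-seq libraries of mouse ESCs, 1 per condition. The submitters' processing notes name CASAVA 1.8.2 and Bowtie, whose version is not given in the sources used here. Per the study's methods, identical reads were collapsed with their number of occurrences kept, so duplicates still count toward the signal. They were mapped to mm9 allowing 1 mismatch, with random placement of reads that map to several sites, and extended. Their occurrences were summed in 20 bp bins around each TSS after removal of simple repeats. The values deposited by the authors are coverage signal in ppm at 201 positions from −2000 to 2000 bp. The source of the TSS list and the normalization are not given in the sources used here. The p400 file was joined by identifier and file order, and 57 of 57 pairs whose order could be tested matched in file order.

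Means from −500 to 500 bp were computed for 22704 RefSeq TSSs in Python 3.11.15 (numpy 2.4.6, scipy 1.17.1, pandas 2.3.3, with figures in matplotlib 3.10.9). Reads were recovered from the smallest step of the signal, with 100% of values whole multiples within a tolerance of 0.1 of a step. p400 was called lower at a ratio of at least 1.5-fold. Read intervals were exact at 95%, and the conditional binomial test used an adjusted p of 0.05. Sequences and exons came from the mm9 (NCBIM37) genome and its GENCODE annotation. Scripts were tested on simulated data. The members of the shared promoters, the gene lists and the motifs were chosen with earlier results of these data known. The named genes have a proper gene symbol, 1 TSS per gene. They are the 8 best by summed rank of Tip60 and Hdac6, the 5 highest and 5 lowest in p400, the 5 largest and 5 smallest p400 falls at 0.25 ppm or more, the 5 highest in each other knockdown library, the 3 nearest to the rule on either side, the members of the gene lists and genes that the study named. The alternatives changed the window, the limits, the normalization, a GC correction, the control, the profile average and the TSSs counted per gene. The amino acid and ribosome biogenesis lists, the CARE-type motif, the rule on the knockdown libraries and the divergent maxima were added after the values were seen.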

Additional observations from a re-analysis of the deposited data

How the results depend on the processing

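The rule kept 495 promoters, 872 with the window narrowed to −250 to 250 bp (321 of them among the 495) and 104 with the window widened to −1000 to 1000 bp (77 among the 495). It kept 1079 with a signal minimum of 0.20 ppm and 180 with 0.30 ppm, and 822 with Tip60 at least 1.5 times and 163 at least 3 times the control. It kept 501 with the untagged control scaled to the Hdac6 reads. For the 495, the median p400 signal upon GFP KD was 0.474 ppm in the narrow window, 0.367 ppm in the wide window and 0.301 ppm with the untagged control subtracted. The share with p400 at least 1.5-fold lower upon Hdac6 KD was 82.8%, against 44.2% of all RefSeq TSSs. At 2-fold it was 56.2% against 21.8%, and by the exact test on reads 48.7% against 11.6%. With equal totals it was 63.2% against 28.2%, and with the GC correction 66.1% against 38.2%. In the wide window it was 76.6% of the 495. The median ratio was 0.575 with equal totals, 0.564 with the GC correction, 0.443 in the narrow and 0.548 in the wide window, so it stayed under 1 in all of these. The median Tip60 signal upon Hdac6 KD was 0.209 ppm in the narrow window, 0.248 ppm with equal totals and 0.303 ppm with the GC correction. The median Hdac6 signal in the library labelled Tip60 KD was 0.290 ppm in the narrow and 0.210 ppm in the wide window. In the wide window the GC content was 57.0% and the CpG ratio 0.708. The maximum of the untagged profile lay at 940 bp with 1 TSS per gene, in place of −860 bp. The cause of these changes was not tested. No paired analysis was possible because each condition has 1 library. For the same reason no library could be left out, and the median of 11 untagged reads at a shared promoter limits every ratio to the control.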

Other observations

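The files also list 14029 TSSs without a RefSeq identifier, which have no p400 values. The rule kept 166 of them (1.18%), and 54 of these lay within 500 bp of a shared promoter. Their median Tip60 signal was 0.374 ppm with GFP KD and 0.234 ppm with Hdac6 KD, and their median Hdac6 signal 0.307 ppm upon GFP KD and 0.269 ppm in the library labelled Tip60 KD. Gm10060 had the highest Hdac6 signal among them, 0.872 ppm upon GFP KD and 0.988 ppm in the library labelled Tip60 KD, beside 1.01 ppm of Tip60. Its untagged level was also high, 0.313 ppm against a median of 0.136 ppm over the 166. Gm11974 had 1.38 ppm of Tip60 and 0.401 ppm of Hdac6 against 0.134 ppm untagged. Gt(ROSA)26Sor, a locus used for gene targeting because it is active in most cells, had 0.511 ppm of Hdac6 upon GFP KD. Reads from repeats or gene copies were placed at random, and their part in these values was not tested.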
